A study of Mus musculus with 6 samples.

Results

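The Eph receptors, the ephrins, the semaphorins and the other classical axon guidance genes were examined in RNA-seq libraries from whole lenses of newborn (P0) mice, 3 from control lenses and 3 from Celf1cKO lenses. The genes were chosen by symbol alone, as the Eph receptors, ephrins, class 3 to 7 semaphorins, plexins, neuropilins, Slits, Robos, netrins and netrin-G genes, Unc5 receptors, Dcc and Neo1. This gave 71 of the 13931 genes measured. The Celf1cKO mice carried 1 Celf1lacZKI allele, which is a germline knockout allele, and 1 Celf1flox allele, whose exon 5 is deleted by the Cre of the Pax6GFPCre transgene in cells that come from the lens placode. The labels give the control lenses as Celf1lacZKI/+, which also lack 1 functional Celf1 allele, whereas by the methods of the study its controls, where nothing else is said, were Celf1flox mice that lack Cre. Which of these genotypes the control lenses had could not be settled, and every comparison below depends on it. Both groups were on a mixed C57BL/6J and FVB background, and each library was made from a pool of 2 lenses. The values are the log2 CPM (read counts scaled to library size) that the authors deposited, and a log2 fold-change is Celf1cKO minus Control, so that positive values are higher in Celf1cKO lenses.

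Ephrins are ligands held on the cell surface, either by a lipid anchor (ephrin-A) or by a membrane-spanning segment (ephrin-B), and they signal through Eph receptor tyrosine kinases on neighboring cells. Semaphorins signal through plexins, with neuropilins as co-receptors for the secreted class 3, while Slits signal through Robo receptors and netrins through Dcc, Neo1 and the Unc5 receptors. These systems were described first in growing axons, and they also steer endothelial cells and hold epithelial sheets in order. In the lens, EPHA2 is a cataract gene in humans and Epha2 and Efna5 are needed in mice for the orderly packing of epithelial and fiber cells. CELF1 is an RNA-binding protein that acts on splicing, stability and translation of its target mRNAs and binds GU-rich elements, many of which lie in 3′ UTRs.

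Celf1 was measured first, because it is the targeted gene. In log2 CPM, Control libraries 1, 2 and 3 gave 9.95, 9.94 and 9.34 and Celf1cKO libraries 1, 2 and 3 gave 8.93, 7.66 and 7.83. All Celf1cKO libraries were below all Control libraries, and Celf1cKO library 1 had the highest value of the 3. The log2 fold-change was -1.60, with a standard error (SE) of 0.335 and a limma p-value of 0.0269 after Benjamini-Hochberg adjustment over all genes, which is the adjusted p given throughout. Between 40694454 and 44387151 reads per library were counted on genes, and 3 reads, taken as the smallest level that this depth can show, correspond to 0.0609 to 0.0807 CPM. The crystallin genes took 45.8% to 46.9% of the reads in Control libraries and 34.7% to 38.5% in Celf1cKO libraries, which bears on any value that is scaled to library size. Scaling the libraries by their total reads in place of the authors' normalization raised the median log2 fold-change of all expressed genes by 0.23.

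The core of the GU-rich element, TGTTTGT in the DNA letters of the transcript strand, was looked for in the 3′ UTR of 1 GENCODE M21 transcript per gene on GRCm38. It was present in 16 of the 69 guidance genes with a 3′ UTR (23.2%), against 3441 of 12942 genes in the whole table (26.6%). Per kilobase of 3′ UTR, it occurred 0.162 times in the guidance genes and 0.318 times over all genes, although the median 3′ UTR was longer in the guidance genes, at 1358 bases against 988.5. By this count the guidance genes did not carry more of the motif than the rest of the table. Some of the occurrences, in Sema3d and Robo3, which had the most negative log2 fold-changes of their families, and in Neo1, the most abundant of the netrin receptors, are shown with their flanks. The sequences are written 5′ to 3′ on the transcript strand, and the capitals mark the motif.
Sema3d, chr5:12585515-12585543, + strand: taggggccttaTGTTTGTaaatgtctcat
Sema3d, chr5:12586833-12586861, + strand: ccaacagacctTGTTTGTttctcatgcat
Robo3, chr9:37416151-37416179, - strand: tgactgagacaTGTTTGTacaaaaggaga
Neo1, chr9:58876632-58876660, - strand: tgttgcattgcTGTTTGTaagctttttta
Neo1, chr9:58876518-58876546, - strand: ttgaaaagactTGTTTGTtgctttctgtg
Epha2, Epha5, Efna5 and Sema3b had no match in this window. A match is a run of letters and not a binding site, and no binding by CELF1 was measured here.

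Of the 71 guidance genes, 42 had an average log2 CPM above 1, the level that the study required of a changed gene, and are called expressed below. The other 29 were lower, with 1 to 156 reads per library. No guidance gene was without a read in any library, and 68 had at least 3 reads in all 6. To be called changed, a gene needed an adjusted p under 0.05, a log2 fold-change beyond 0.58 up or down, and that average level. By this rule 1 guidance gene rose, Epha5, and 1 fell, Sema3b, which is 2.82% of the 71. Of all genes in the table, 7.39% were called, 4.77% as higher and 2.63% as lower, so the share among the guidance genes was below that of the table. Only expressed genes could be called, which were 42 of the 71 guidance genes and 10640 of all 13931 genes, and this lowers the share of the guidance genes. An unadjusted p under 0.05 was reached by 17 guidance genes, against 29.9% of all genes. An adjusted p under 0.05 was reached by 3 of the 71, the third being Plxnb2, against 1655 of all 13931 genes.

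Without regard to the calls, the expressed guidance genes lay mostly below 0. Their median log2 fold-change was -0.43, and 34 of 42 were negative (81.0%), whereas the median over all expressed genes was 0.0041 and 49.6% of them were negative. In 13 of the 42 all Celf1cKO libraries were below all Control libraries, against 16.9% of all expressed genes, and in 3, namely Epha5, Plxna3 and Sema5b, all were above, against 23.1%. In the remaining 26 the groups overlapped. With scaling by total reads the median of the guidance genes was -0.20 and 24 of 42 were negative, against 0.23 and 2901 of 10640 for all expressed genes. The guidance genes lay lower than the other expressed genes under both scalings.

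**Figure D1:**
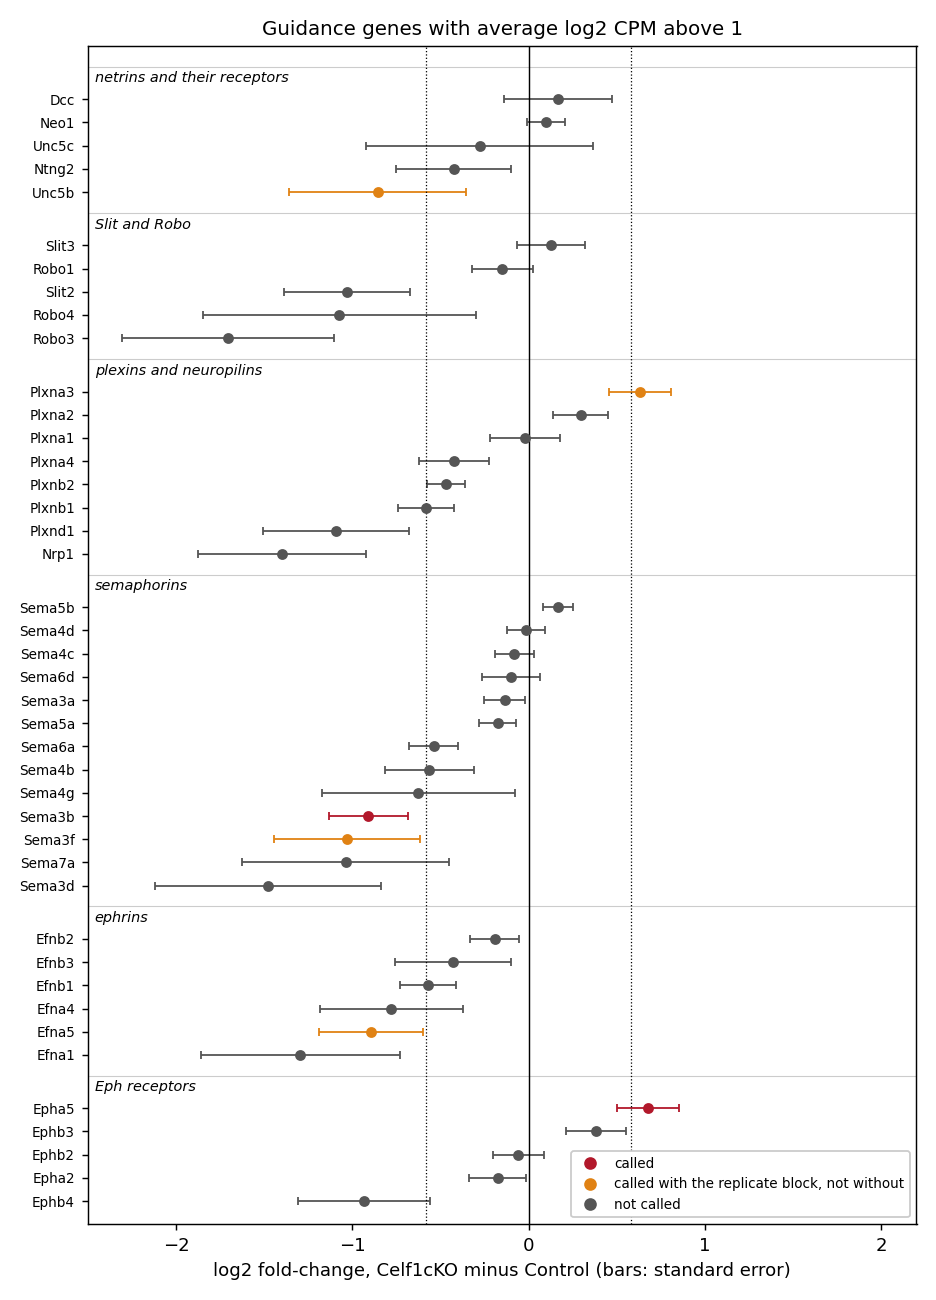
Log2 fold-change (Celf1cKO minus Control, x axis) of the 42 guidance genes with average log2 CPM above 1, grouped by family, with bars for the standard error of the limma fit on 3 against 3 libraries. Dotted lines mark the cut-off of 0.58 in either direction. Epha5 and Sema3b, in red, were called, and Plxna3, Efna5, Sema3f and Unc5b, in orange, were not called in this fit and were called with the replicate number in the model.

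Among the 14 Eph receptors, 5 were expressed, Epha5 rose, none fell by the rule, and the median log2 fold-change of the 5 was -0.058, or 0.17 with scaling by total reads. Epha5 (ENSMUSG00000029245, chromosome 5, 84054761 to 84417382 on the - strand of GRCm38) encodes a receptor for the ephrin-A ligands. In log2 CPM it was at 3.98, 4.02 and 3.82 in Control libraries 1, 2 and 3, and at 4.24, 4.88 and 4.72 in Celf1cKO libraries 1, 2 and 3, from 554 to 1429 reads per library. The groups did not overlap, and Celf1cKO library 1 was nearest to the controls. The log2 fold-change was 0.68, or 1.60-fold (SE 0.176, limma adjusted p = 0.0488), which was just under the threshold. Leaving out any library other than Celf1cKO library 1 ended the call (limma adjusted p of 0.110 to 0.173).

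Epha2 (ENSMUSG00000006445, chromosome 4, 141301240 to 141329384 on the + strand), the Eph receptor tied to cataract, was the most abundant of the Eph receptors, with 19.4 ± 3.39 CPM per kb of exons in Control libraries (SD, n = 3). It gave 6.19, 6.59 and 6.69 in the 3 controls and 6.10, 6.54 and 6.29 in the 3 Celf1cKO libraries, in log2 CPM, and the groups overlapped. The log2 fold-change of -0.18 (SE 0.163, limma adjusted p = 0.503) was not distinguished from 0, and with scaling by total reads it was 0.050. Ephb4, a receptor for ephrin-B2 known from venous endothelium, was at 4.17, 3.89 and 4.23 in the 3 controls and at 3.79, 2.23 and 3.48 in the 3 Celf1cKO libraries, in log2 CPM. All of its Celf1cKO values were below the controls, but they spread widely and the difference did not pass the test (log2 fold-change -0.93, limma adjusted p = 0.147). Without Celf1cKO library 2 it was -0.46. Ephb2 and Ephb3, receptors of the ephrin-B ligands, had log2 fold-changes of -0.058 and 0.38, neither of which passed. The 9 Eph receptors below the expression cut-off were Epha1, Epha3, Epha4, Epha6, Epha7, Epha8, Epha10, Ephb1 and Ephb6. Epha10 was higher in all Celf1cKO libraries (log2 fold-change 0.99, limma adjusted p = 0.101) and Epha4 and Ephb6 lower in all of them, without passing the test.

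The ephrins formed the only family in which every expressed gene was negative, although with scaling by total reads 5 of the 6 were. Of 8 ephrins, 6 were expressed, and all 6 had negative log2 fold-changes, with a median of -0.68. All 6 had their lowest value in Celf1cKO library 2 (against 21.5% of all expressed genes), and none was called without the block. Efna5 (ENSMUSG00000048915, chromosome 17, 62604184 to 62881317 on the - strand) encodes ephrin-A5, the lipid-anchored ligand with a known role in lens fiber packing. In log2 CPM it was at 5.40, 4.89 and 4.77 in Control libraries 1, 2 and 3, and at 4.66, 3.53 and 4.18 in Celf1cKO libraries 1, 2 and 3. All Celf1cKO values were below all controls, although Celf1cKO library 1 was only just below Control library 3. The log2 fold-change was -0.89, or 0.538-fold (SE 0.293), with a limma adjusted p of 0.0909. Libraries with the same number deviated together, so the replicate number was also added to the model as a block. This pairing was inferred from these same data, and no label describes it. With the block, the adjusted p from limma was 0.0253 and Efna5 was called lower.

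Efna1, another ephrin-A and a main ligand of EphA2, had the most negative value of the family. It was at 3.26, 3.22 and 2.97 in the 3 controls and at 3.14, 0.59 and 1.84 in the 3 Celf1cKO libraries, in log2 CPM. Celf1cKO library 1 was at the control level and library 2 far below it, so the log2 fold-change of -1.29 carried a standard error of 0.563 (limma adjusted p = 0.174), and it was -0.66 without Celf1cKO library 2. Efnb2, the ephrin-B with the highest level, was at 6.68, 6.83 and 6.81 in the 3 controls and at 6.88, 6.36 and 6.50 in the 3 Celf1cKO libraries, in log2 CPM, which overlapped. Its log2 fold-change was -0.19, and with scaling by total reads it was 0.034. Efnb1 was tight in the controls, between 3.85 and 3.89 log2 CPM, and lower in all Celf1cKO libraries, at 3.57, 3.04 and 3.28 log2 CPM. At a log2 fold-change of -0.57 it lay just under the fold cut-off (limma adjusted p = 0.0583, 0.0483 with the block). Efna4 (-0.78) and Efnb3 (-0.43) did not pass, and 10.51% of the exon length of Efna4 is shared with an antisense gene, 4731419I09Rik. Efna2 and Efna3 were below the expression cut-off.

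**Figure D2:**
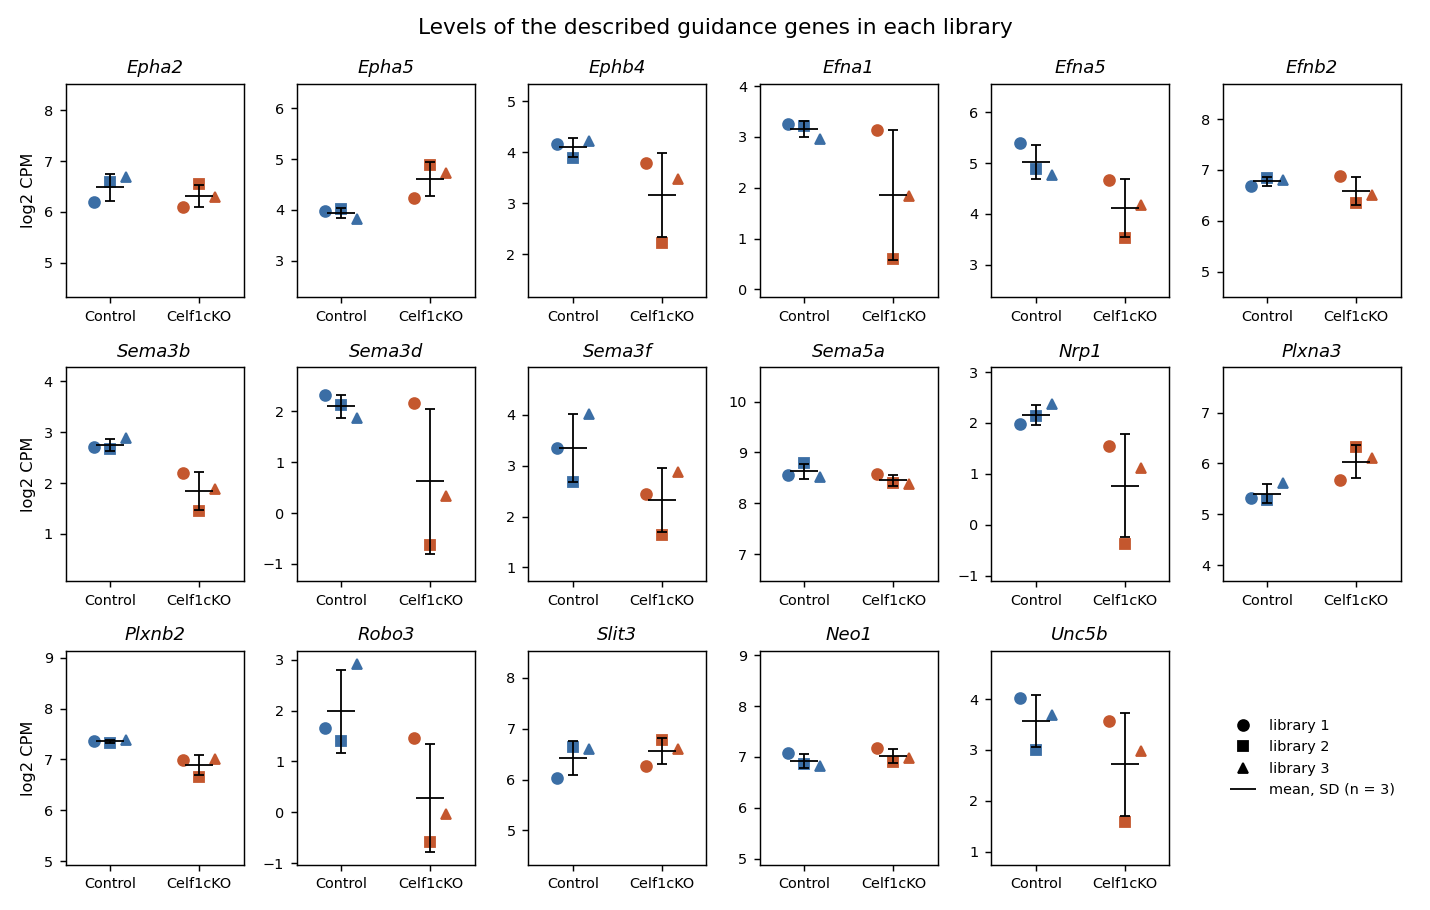
Levels in log2 CPM (y axis) of 17 guidance genes in each Control (blue) and Celf1cKO (orange) library, with the symbol giving the library number and the bars the mean and SD over 3 libraries and all panels spanning the same height. In Efna1, Sema3d, Robo3, Nrp1 and Unc5b, Celf1cKO library 1 lies nearest to the controls and library 2 lowest, while Epha2, Sema5a, Slit3 and Neo1 overlap between groups.

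Of the 20 semaphorins, 13 were expressed, 12 of these had negative log2 fold-changes (7 with scaling by total reads) and their median was -0.54. Sema3b fell, and no semaphorin rose. Sema3b (ENSMUSG00000057969, chromosome 9, 107597674 to 107609229 on the - strand) encodes a secreted semaphorin that acts through neuropilins. It gave 2.7, 2.68 and 2.89 in the 3 controls and 2.21, 1.46 and 1.88 in the 3 Celf1cKO libraries, in log2 CPM, from 131 to 290 reads per library. The groups did not overlap, and the gap between them was larger than the range of the controls but smaller than the range of the Celf1cKO libraries. The log2 fold-change was -0.91, or 0.533-fold (SE 0.226, limma adjusted p = 0.0437). The call was lost when any library other than Celf1cKO library 1 was left out (limma adjusted p of 0.103 to 0.144) and with scaling by total reads (-0.68, adjusted p = 0.0678).

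Sema3f, the class 3 ligand that acts mainly through neuropilin-2, was not called in the fit without the block and was called lower with it. It was at 3.35, 2.68 and 4.03 in the 3 controls and at 2.45, 1.64 and 2.88 in the 3 Celf1cKO libraries, in log2 CPM. The groups overlapped, but each Celf1cKO library was well below the Control library of the same number. The log2 fold-change of -1.03 (SE 0.414) had a limma adjusted p of 0.145 and of 0.0182 with the block. Sema3d, the most negative semaphorin, was at 2.32, 2.12 and 1.87 in the 3 controls and at 2.17, -0.64 and 0.34 in the 3 Celf1cKO libraries, in log2 CPM. Celf1cKO library 1 lay among the controls, and the log2 fold-change of -1.48 had a standard error of 0.640 (limma adjusted p = 0.172). It was -0.85 without Celf1cKO library 2 and -2.25 without library 1.

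Sema5a and Sema3a, the most abundant semaphorins per length of their exons, varied little. Sema5a, a transmembrane semaphorin with thrombospondin repeats, was at 8.56, 8.80 and 8.53 in the 3 controls and at 8.58, 8.40 and 8.38 in the 3 Celf1cKO libraries, in log2 CPM. These values overlapped, and the log2 fold-change of -0.18 (limma adjusted p = 0.295) became 0.050 with scaling by total reads. Sema6a, a transmembrane ligand of the A-type plexins, was lower in all Celf1cKO libraries, at 4.07, 3.84 and 4.32 log2 CPM against 4.70, 4.56 and 4.58 log2 CPM. Its log2 fold-change of -0.54 was under the fold cut-off and its adjusted p from limma was 0.0501. Of the others, Sema7a (-1.04), Sema4g (-0.63) and Sema4b (-0.56) were more negative than Sema6d (-0.10), Sema4c (-0.080) and Sema4d (-0.014), and Sema5b was the single positive one at 0.16. None of these passed the test. Sema3c, Sema3e, Sema3g, Sema4a, Sema4f, Sema6b and Sema6c were below the expression cut-off.

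Among the receptors of the semaphorins, 8 of 11 plexins and neuropilins were expressed, and their median was -0.45. In 5 of the 8 all Celf1cKO libraries were below all controls, against 16.9% of all expressed genes. Plxnb2 (ENSMUSG00000036606, chromosome 15, 89155549 to 89180788 on the - strand), a receptor for class 4 semaphorins, was the most abundant of them, with 21.2 ± 0.484 CPM per kb of exons in the controls (SD, n = 3). It was at 7.36, 7.32 and 7.39 in the 3 controls and at 6.99, 6.66 and 7.0 in the 3 Celf1cKO libraries, in log2 CPM, a difference of -0.47 (SE 0.107, limma adjusted p = 0.0345). The controls were nearly equal, and Plxnb2 passed the p threshold while its fold-change stayed under the fold cut-off. With scaling by total reads it was -0.24 and no longer passed (limma adjusted p = 0.161). Plxnb1, the receptor of Sema4D, lay just under the fold cut-off at -0.58, with a limma adjusted p of 0.0564 (0.0186 with the block).

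Plxna3 had the opposite sign. Its product pairs with neuropilin-2 in the receptor for class 3 semaphorins such as Sema3F. In log2 CPM it was at 5.32, 5.27 and 5.61 in Control libraries 1, 2 and 3, and at 5.68, 6.32 and 6.10 in Celf1cKO libraries 1, 2 and 3. The groups did not overlap, although Celf1cKO library 1 was only just above Control library 3. The log2 fold-change of 0.63, or 1.55-fold (SE 0.176), had a limma adjusted p of 0.0587, and Plxna3 was called higher with the block (0.0406) and with scaling by total reads (0.86, adjusted p = 0.0217). Nrp1, the co-receptor for class 3 semaphorins and for VEGF, was at 1.99, 2.13 and 2.37 in the 3 controls and at 1.55, -0.38 and 1.12 in the 3 Celf1cKO libraries, in log2 CPM. All of its Celf1cKO values were below the controls, and the log2 fold-change of -1.40 (SE 0.476) did not pass (limma adjusted p = 0.0997) and was -0.82 without Celf1cKO library 2. Plxnd1, a receptor known from endothelium, was lower in all Celf1cKO libraries (-1.09, limma adjusted p = 0.127, and -0.60 without Celf1cKO library 2), as was Plxna4 (-0.42), whereas Plxna1 (-0.019) and Plxna2 (0.30) overlapped between groups. Nrp2, Plxnb3 and Plxnc1 were below the expression cut-off.

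In the Slit and Robo family, 5 of 7 genes were expressed, with the lowest median of the 6 families, -1.03, and none was called. Robo3, which regulates midline crossing of commissural axons, was at 1.66, 1.40 and 2.91 in the 3 controls and at 1.47, -0.59 and -0.028 in the 3 Celf1cKO libraries, in log2 CPM. Celf1cKO library 1 lay within the controls, and the log2 fold-change of -1.70 (SE 0.602) did not pass (limma adjusted p = 0.109). Robo4, the Robo of vascular endothelium, was at 3.39, 2.11 and 2.65 in the 3 controls and at 3.43, 0.13 and 1.37 in the 3 Celf1cKO libraries, in log2 CPM, and Celf1cKO library 1 was the highest of the 6. The expressed ligands of the family differed. Slit2 was lower in all Celf1cKO libraries, at 5.04, 3.89 and 4.87 log2 CPM against 5.47, 6.23 and 5.19 log2 CPM in the controls (-1.03, limma adjusted p = 0.104, and -0.67 without Celf1cKO library 2). Slit3, the more abundant of both, was at 6.04, 6.64 and 6.59 in the 3 controls and at 6.27, 6.78 and 6.60 in the 3 Celf1cKO libraries, in log2 CPM, which overlapped (0.13, limma adjusted p = 0.694). Robo1 had a log2 fold-change of -0.15, and Robo2 and Slit1 were below the expression cut-off.

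Of the 11 netrins and netrin receptors, 5 were expressed, their median log2 fold-change was -0.28, and none was called without the block. Neo1, which encodes neogenin, a receptor for netrins and repulsive guidance molecules, was the most abundant, at 13.9 ± 1.33 CPM per kb of exons in the controls (SD, n = 3). It was at 7.07, 6.86 and 6.83 in the 3 controls and at 7.17, 6.90 and 6.99 in the 3 Celf1cKO libraries, in log2 CPM, which overlapped (0.10, limma adjusted p = 0.563). Unc5b, a repulsive netrin receptor also known from endothelium, was at 4.02, 3.0 and 3.68 in the 3 controls and at 3.58, 1.59 and 2.98 in the 3 Celf1cKO libraries, in log2 CPM. The groups overlapped, yet each Celf1cKO library was below the Control library of its own number, and the log2 fold-change of -0.86 had a limma adjusted p of 0.289 without the block and of 0.0473 with it. It was -0.29 without Celf1cKO library 2 and -1.29 without library 1. Dcc (0.17), Unc5c (-0.28) and Ntng2 (-0.43) overlapped between groups, and 13.98% of the exon length of Ntng2 is shared with another gene on the same strand, 6530402F18Rik. Ntn1, Ntn3, Ntn4, Ntng1, Unc5a and Unc5d were below the expression cut-off. With the block, 2 guidance genes were called higher and 4 lower, against 9.18% of all genes in either direction.

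**Figure D3:**
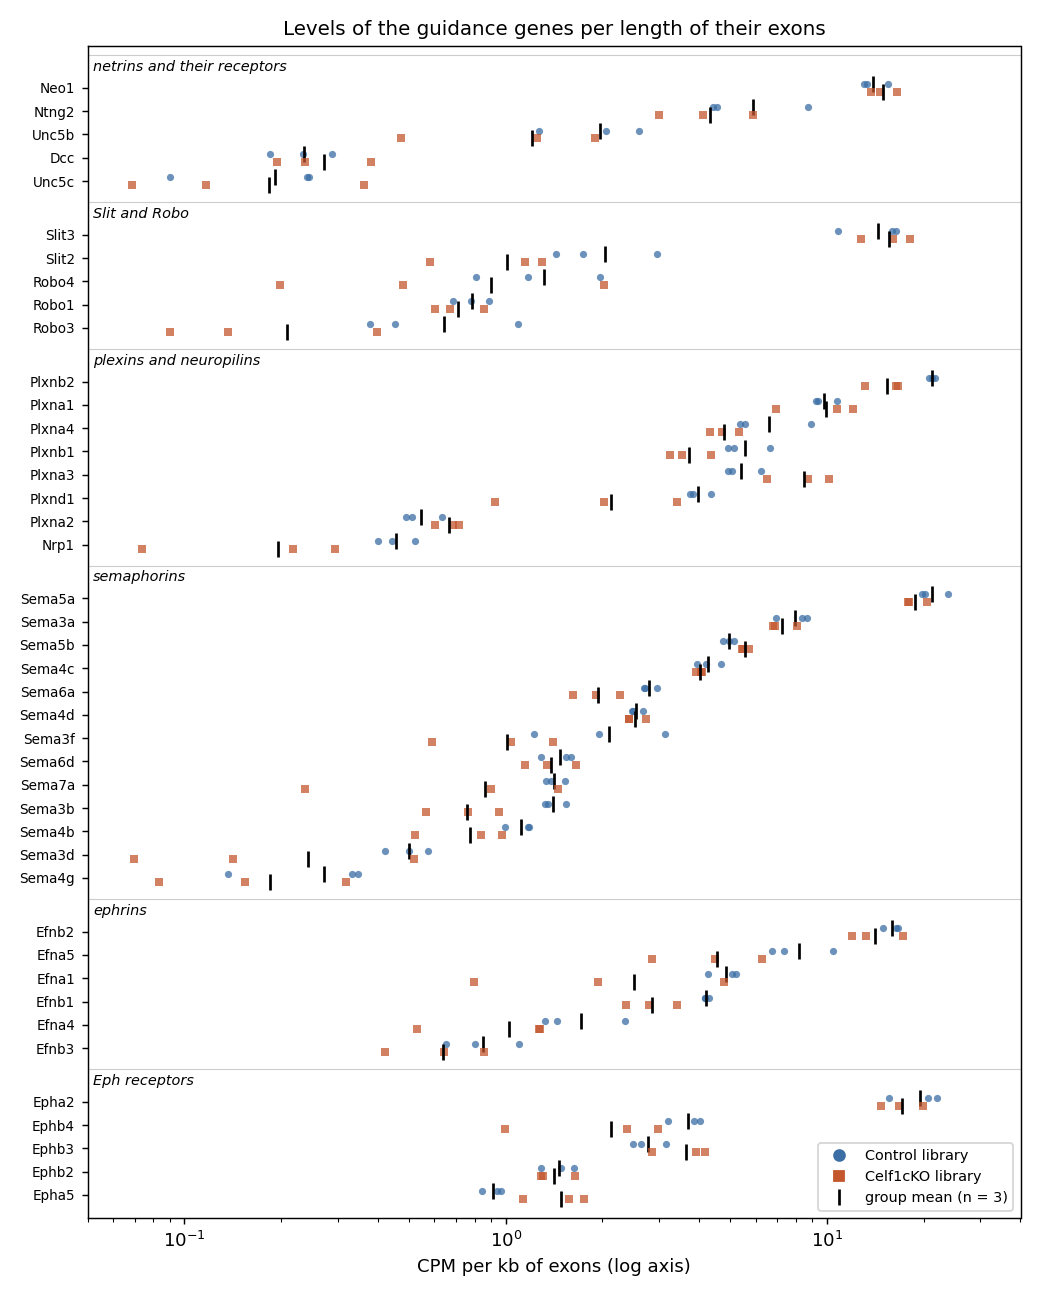
Levels of the 42 expressed guidance genes in CPM per kb of merged exons (log x axis) in each Control (blue circles) and Celf1cKO (orange squares) library, with vertical ticks for the group means. Sema5a, Plxnb2, Epha2, Efnb2, Slit3 and Neo1 lead their families, and Nrp1, Sema3d and Robo3 are among the lowest and have widely spread Celf1cKO values.

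Compared per length of exons, the highest control levels of the 6 families lay close together. They were 21.3 CPM per kb for Sema5a, 21.2 for Plxnb2, 19.4 for Epha2, 15.97 for Efnb2, 14.4 for Slit3 and 13.9 for Neo1. Of these 6 genes, only Plxnb2 had an adjusted p under 0.05 (the others between 0.295 and 0.694). Epha5, the gene that rose, was the lowest of the expressed Eph receptors, at 0.915 ± 0.0654 CPM per kb in the controls and 1.49 ± 0.324 CPM per kb in Celf1cKO lenses (SD, n = 3). Sema3b went from 1.41 ± 0.117 to 0.760 ± 0.195 CPM per kb (SD, n = 3).

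The 3 Celf1cKO libraries were not alike in the guidance genes. The median deviation of the 42 expressed genes from their control mean was -0.11 log2 units in Celf1cKO library 1, -0.67 in library 2 and -0.28 in library 3, while over all expressed genes these medians were 0.016, 0.032 and 0.0044. Of the 42 genes, 25 had their lowest value of all 6 libraries in Celf1cKO library 2 (59.5%, against 21.5% of all expressed genes). In 17 of them Celf1cKO library 2 was more than 1 log2 unit under the control mean (40.5%, against 8.96%). Without Celf1cKO library 2, no guidance gene was called, against 3.13% of all genes, and the median log2 fold-change was -0.29. Without Celf1cKO library 1, 2 guidance genes were called higher (Epha5 and Plxna3) and 10 lower (Efna1, Efna5, Efnb1, Ephb4, Nrp1, Plxnd1, Robo3, Robo4, Sema3b and Sema3d), with a median of -0.48. These 12 are 16.9% of the 71, while 13.8% of all genes were called without that library. Only the expressed genes could be called, 42 of the 71 and 10640 of all 13931.

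Markers of the tissues that surround the lens, and of the lens itself, moved with these libraries. The 16 listed endothelial genes, among them Pecam1, Cdh5 and Kdr, summed to 230.8, 155.9 and 187.1 CPM in the 3 controls and to 212.8, 31.9 and 89.1 CPM in Celf1cKO libraries 1 to 3 (exact permutation test, two-sided, p = 0.3). All 16 were lowest in Celf1cKO library 2, and in 15 the Celf1cKO libraries had the order 1, 3, 2 from high to low. This order was shared by 20 of the 42 expressed guidance genes (47.6%, against 23.7% of all expressed genes). The same order was found in 13 of 16 lens fiber markers, 8 of 10 lens epithelium markers and Celf1. The sizes were unlike, as the lens fiber markers summed to 128675 and 130268 CPM in Celf1cKO libraries 2 and 3. Among these endothelial genes none was called without the block and Eng was called lower with it (-1.45, limma adjusted p of 0.263 and 0.0449), and Sox18, which was below the expression cut-off, had the most negative value at -2.11. The 12 pericyte and mesenchyme markers in the table summed to between 230.0 and 239.8 CPM in the controls and to 178.0, 59.6 and 105.4 CPM in Celf1cKO libraries 1 to 3 (exact p = 0.1, the smallest that 3 against 3 libraries allow). Pdgfra fell, and with the block Notch3 and Pdgfrb were called lower as well. The lens epithelium markers summed to between 1069 and 1166 CPM in the controls and to 1004, 488.2 and 652.8 CPM in Celf1cKO lenses (exact p = 0.1), with Cp and Foxe3 called lower of 10. The log2 ratio of the lens epithelium sums was -0.64, and with scaling by total reads it was -0.42 (exact permutation test, p = 0.4). The lens fiber markers, mostly crystallins, had lower sums in all Celf1cKO libraries, and 10 of 16 were called lower (8 with the block). They still summed to between 128675 and 249196 CPM in each library, so the lens label of every library stood. The Schwann and glia markers summed to 12.1, 13.9 and 15.8 CPM in the 3 controls and to 8.50, 4.71 and 6.84 CPM in Celf1cKO libraries 1 to 3, with Gfap called lower with the block. The cornea markers summed to 6.71, 7.13 and 6.17 CPM in the 3 controls and to 5.31, 4.40 and 4.89 CPM in Celf1cKO libraries 1 to 3. Both sums were lower in all Celf1cKO libraries (exact p = 0.1 for each) and had the order 1, 3, 2 among them. They rest on few genes, since 5 of 11 listed Schwann and glia markers and 3 of 11 cornea markers were in the table. Gene by gene, 1 of the 5 and 2 of the 3 had this order.

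**Figure D4:**
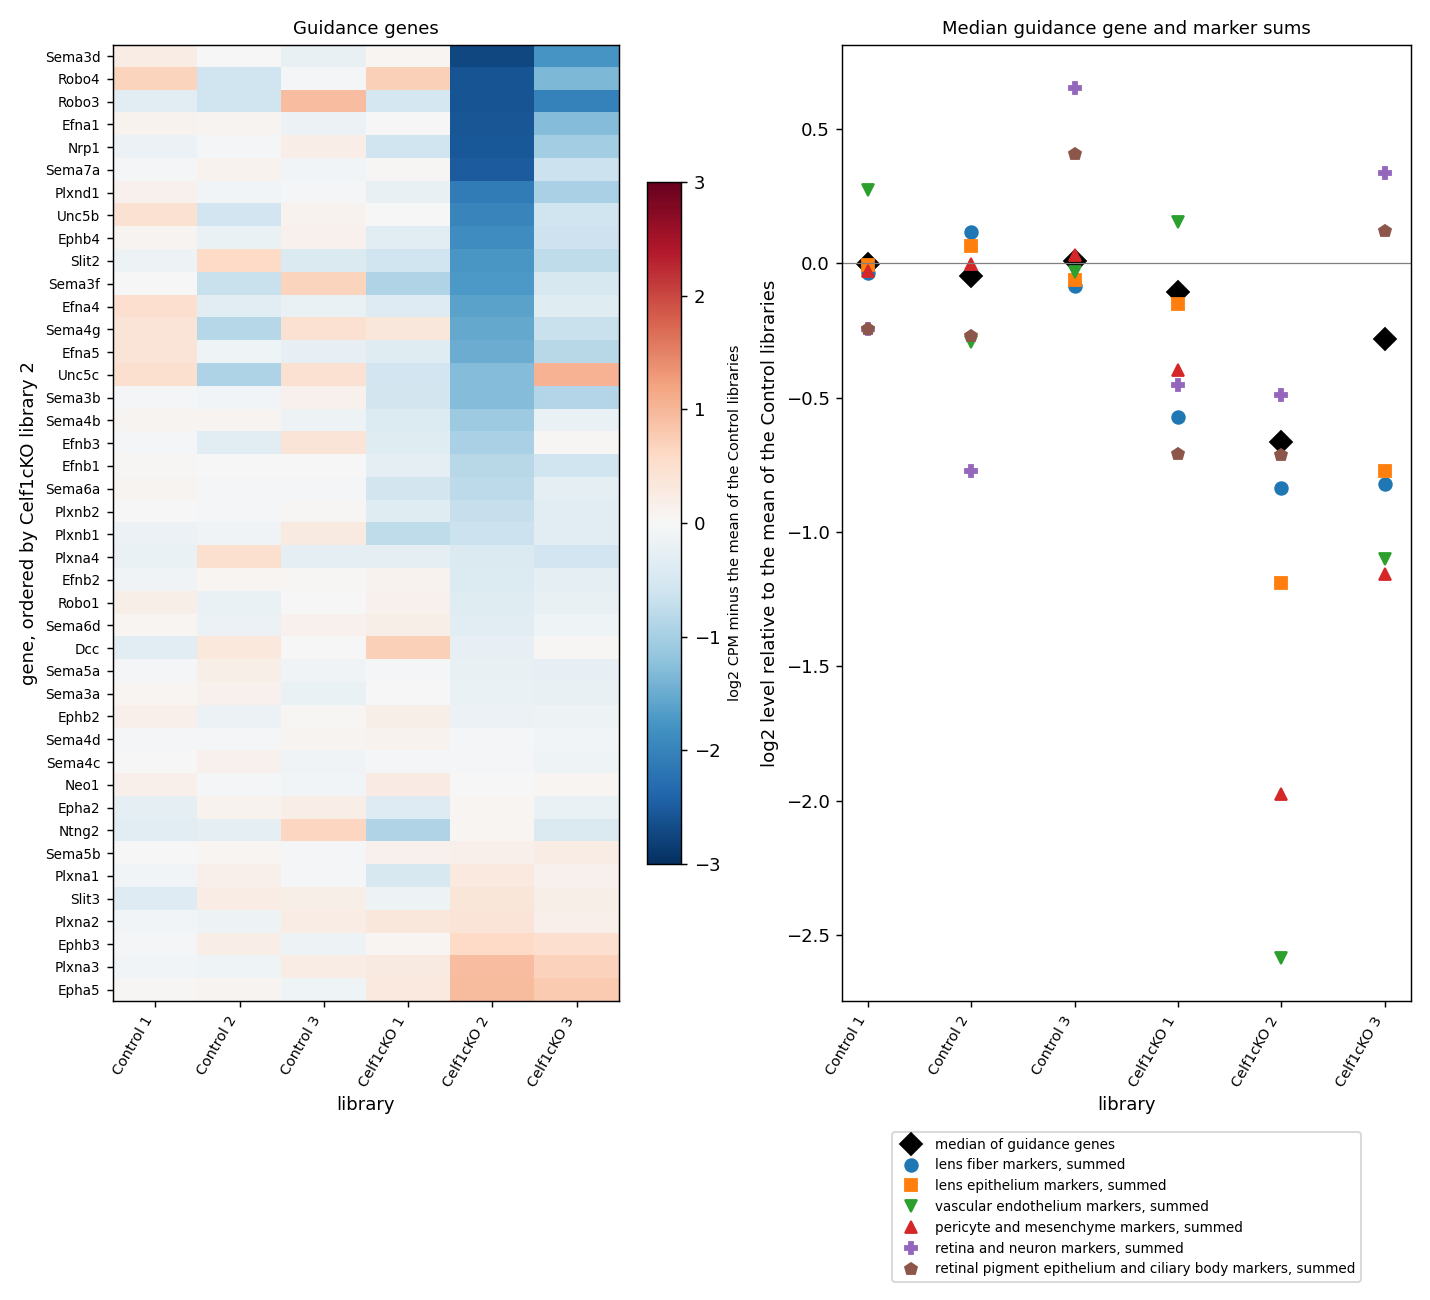
Left, log2 CPM of each expressed guidance gene minus its control mean (color) in the 6 libraries, ordered by Celf1cKO library 2. Right, the median of these genes (diamonds) and the summed level of the marker lists, in log2 units relative to the control mean. Celf1cKO library 2 is the lowest column for most guidance genes and for the endothelial, pericyte and lens epithelium markers.

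The retina and neuron markers did not follow this order, with 46.7, 32.4 and 86.8 CPM in the controls and 40.4, 39.3 and 69.8 CPM in Celf1cKO lenses (exact p = 0.8), and library 3 was the highest in both groups. Of 13 such markers Elavl4 and Rbfox3 were called lower, of which Rbfox3 was not called with the block. Of the 71 guidance genes, 16 were highest in library 3 of both groups (22.5%, against 9.35% of all genes), Sema3f among them in each group. The markers of retinal pigment epithelium and ciliary body were also highest in library 3 of both groups (58.2 and 47.7 CPM), and Mitf was called lower of 9. Macrophage and blood markers summed to between 5.30 and 14.9 CPM over the 6 libraries (exact p = 1). The part of surrounding tissue in the values of the guidance genes was not tested. In bulk RNA from whole lenses, fewer cells of a type and less RNA per cell cannot be told apart.

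Genes that act with these ligands and receptors were described from 3 further lists, of co-receptors, other ligands and sheddases, of intracellular transducers, and of Eph and ephrin partners. Together they name 140 genes, of which 130 were in the table and 114 expressed. Of the 130, 9 rose and 4 fell (10%, against 7.39% of all genes), and the expressed ones had a median of -0.090. The lists were chosen with earlier results of these data known, so this share is a description and not independent of the data. With the block the same count rose and 11 fell, against 9.18% of all genes called in either direction.

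Several of the called genes bind the receptors described above. Rgmb, a repulsive guidance molecule that binds neogenin, was at 3.01, 3.0 and 3.12 in the 3 controls and at 3.95, 4.24 and 4.01 in the 3 Celf1cKO libraries, in log2 CPM. It rose by 1.02 (SE 0.132, limma adjusted p = 0.0101), with a gap between the groups far wider than the spread within either. Lrrc4, a netrin-G ligand, was at 4.71, 5.10 and 4.67 in the 3 controls and at 3.66, 3.70 and 3.69 in the 3 Celf1cKO libraries, in log2 CPM. It fell by 1.14 on the log2 scale (SE 0.139, limma adjusted p = 0.0094), and its 3 Celf1cKO values were nearly equal. Flrt2, a ligand of Unc5 receptors (0.68), Sdc1, a heparan sulfate proteoglycan (0.79), and Tmeff1 (1.06) also rose, and Nfasc, a cell adhesion molecule of axons, fell (-1.20). In the cytoplasm, Cfl2, an actin-severing cofilin (1.0), the small GTPase Cdc42 (0.76), the kinases Src (0.68) and Abl2 (0.63), and Vav2, an exchange factor that Eph receptors recruit (1.16), rose. Trio, an exchange factor downstream of Dcc, fell (-0.80), as did Spsb1, an adaptor of a ubiquitin ligase, from the list of Eph and ephrin partners (-0.90). These 11 further genes had adjusted p-values from limma of 0.00888 to 0.0378.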

How the data were processed

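RNA from pools of 2 lenses of P0 mice was sequenced as paired-end libraries, 3 per group. According to the study's methods and processing notes, the authors aligned the reads with STAR (2.7.8a) to GRCm38.p6, counted them per gene with featureCounts (2.0.0), removed genes of very low CPM and normalized with edgeR. The authors deposited log2 CPM values of each library for 13931 genes. Whether counting used the strand is not given in the sources used here, so reads of antisense genes cannot be told apart. The deposited columns of the authors' own comparison (fold-changes, F statistics, p-values, FDR and group means) were not used, except the average log2 CPM, which set the expression cut-off of 1 and left 10640 genes. Read numbers were recovered from the even spacing of the values after they were taken back from log2 to CPM, and were rounded. Wholeness was checked only below a set read number, where 100% lay close to a whole number.

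Samples were grouped by their labels. Group differences were tested on the log2 CPM values with limma 3.58.1 in R 4.3.3 (variance trend, no block), with Benjamini-Hochberg adjustment over all genes. This replaced the count test that the study used, because the deposited unit is log2 CPM. Fold-changes are on the log2 CPM scale with the authors' small prior count, which understates changes of low genes. Marker sums were compared by two-sided exact permutation tests, which cannot go below p = 0.1 with 3 against 3 libraries. Labels do not say that libraries came from separate litters, so p-values measure the spread between these pools. The deviations of same-numbered libraries from their group means correlated at 0.26, 0.39 and 0.38 over all genes, and other pairs between -0.39 and -0.01. The numbers were therefore taken to pair the libraries, and values or calls with the replicate block are given where they change a call of a guidance or marker gene. Nothing in the labels describes the pairing. It was inferred from these same data, so the calls with the block are a description and give no independent support.

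The genes and lists were chosen with earlier results of these data known. Genes described one by one were those called with or without the block, Epha2 and Efna5, the most abundant and the most changed gene of each family, and genes past the p threshold alone. Efnb1, Sema6a, Plxnb1, Plxnd1, Robo4 and Slit2 were added after their values were seen, as were the genes of other cell types. Exon lengths, positions and 3′ UTRs came from GENCODE M21, and figures from matplotlib 3.10.9. The fit was also run on simulated counts, drawn independently for each library. Those counts held no shift shared by the genes of a library, unlike these data, so that run does not bear on the calls here. Alternatives were the block, no variance trend, robust empirical Bayes, limma voom on the whole reads, log2(CPM + 1), other scalings, other cut-offs and each library left out.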

Additional observations from a re-analysis of the deposited data

How the results depend on the processing

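The counts of called guidance genes were small and moved with most choices. Without the block 1 guidance gene was called higher and 1 lower, against 2 and 4 with the replicate block. No guidance gene was called higher without a variance trend, with limma voom on the whole reads, with centring on the median or at a log2 fold-change above 1, and 3 were with scaling by total reads. None was called lower without a variance trend, with scaling by total reads or at a log2 fold-change above 1, and 2 were without a fold cut-off. The whole table moved as well, from 664 genes higher and 366 lower in the fit without the block. It gave 306 and 115 without a variance trend and 1663 and 204 with scaling by total reads. With limma voom it gave 649 and 403, and with centring on the median 588 and 404. Leaving out 1 library at a time gave 0 to 2 guidance genes higher and 0 to 10 lower, with calls only where Celf1cKO library 1 was left out. Over all genes, 1916 were called without Celf1cKO library 1, 1 without Control library 2 and 1 without Celf1cKO library 3, against 1030 with every library. Of the other guidance genes, 9 were called higher and 4 lower. The higher count was 4 without a variance trend, 17 with total reads and 3 at a log2 fold-change above 1. The lower count was 11 with the replicate block, 2 without a variance trend, 2 at a log2 fold-change above 1 and 9 without a fold cut-off. With 1 library left out these counts ranged from 0 to 12 and from 0 to 15, and both were 0 without Control library 2 and without Celf1cKO library 3. Celf1 was at -1.60 without a variance trend, where it no longer passed (limma adjusted p = 0.0693), and between -1.99 and -1.36 with 1 library left out, where it passed only without Celf1cKO library 1. The block changed no other call among the guidance genes described one by one. Scaling by total reads turned the sign of 10 of the 42 expressed guidance genes, Efnb2 (0.034), Epha2 (0.050), Sema5a (0.050), Ephb2 (0.17), Sema3a (0.091), Sema4c (0.15), Sema4d (0.21), Sema6d (0.13), Plxna1 (0.21) and Robo1 (0.077), and of the log2 ratio of the summed macrophage and blood markers (0.20) and of the retina and neuron markers (0.065). With 1 library left out, these ratios ranged from -0.30 to 0.49 and from -0.47 to 0.33, and Slit3 from -0.065, without Control library 1, to 0.27. Over the expressed guidance genes, the median stayed negative under every alternative run, between -0.55 and -0.20. The cause of these shifts was not tested. The guidance genes below the expression cut-off rested on 1 to 156 reads per library.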

Other observations

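Among the partners of the guidance receptors, some genes were not called in the fit without the block and were called lower with the replicate block, among them Dpysl3, Dpysl4, Draxin, Inppl1, Mmp14 and Srgap3. Dpysl3, a collapsin response mediator protein that acts downstream of semaphorins, was at 3.80, 3.71 and 4.12 in the 3 controls and at 3.23, 1.21 and 2.79 in the 3 Celf1cKO libraries, in log2 CPM (-1.46, limma adjusted p = 0.0893, 0.0439 with the block). Inppl1, the phosphatase SHIP2 that binds EphA2, was at 4.98, 4.81 and 5.40 log2 CPM and at 4.59, 2.21 and 3.78 log2 CPM in the same order (-1.54, limma adjusted p = 0.106, 0.0481 with the block). Both were lower in all Celf1cKO libraries, as were 13 of the 42 expressed guidance genes (against 16.9% of all expressed genes). Both had their lowest value in Celf1cKO library 2, as had 25 of the 42 (59.5%, against 21.5% of all expressed genes).

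Some of the guidance genes below the expression cut-off stood out in a single library. Epha8, an Eph receptor known from the developing midbrain, had 127 reads in Control library 3 and between 3 and 11 in every other library. Sema3c and Plxnc1 also had most reads in library 3 of each group. These genes entered no call.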
